A study of Mus musculus with 282 samples.

Results

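Trh, Crh, Sst and Ghrh encode releasing and inhibiting hormones that the hypothalamus sends to the anterior pituitary. The members were taken by their gene names in the deposited assembly, which gave 4 of 14079 gene rows and 8 of 51024 transcript rows of the expression table: 2 transcripts of Trh, 1 of Crh, 2 of Sst and 3 of Ghrh. The values came from 282 male mice fed a diet labelled as high fat, which the study also calls high in sugar, with 1 mRNA library of the whole hypothalamus per mouse, and no group on another diet was compared. The mice came from the HMDP (Hybrid Mouse Diversity Panel), in which classical inbred strains are combined with recombinant inbred strains, lines that each carry a fixed mixture of 2 parental genomes. A strain was assigned to 281 mice, and the 99 strains comprise 25 classical inbred strains and 18 AXB/BXA (A/J and C57BL/6J), 43 BXD (C57BL/6J and DBA/2J), 6 BXH (C57BL/6J and C3H/HeJ) and 7 CXB (from BALB/c and C57BL/6 substrains) recombinant inbred strains. The sample titles name AXB-18/PgnJ and AXB-20/PgnJ as AXB19a and AXB19b, so these and AXB-19/PgnJ may be related lines, although they were counted as separate strains. Replicates are separate mice, with 3 mice in 85 strains, 2 in 12 strains and 1 in 2 strains. Values are FPKM, in which fragments are scaled by transcript length and library size. Read counts per gene cannot be had from FPKM, so the reads behind a value are unknown here. Precision is given as the spread over mice. Mapped reads per library were listed by the study and served only as covariates in an alternative.

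Hypophysiotropic hormones are made by neurons whose axons end at the median eminence, where the peptides enter the portal vessels that supply the anterior pituitary. Thyrotropin-releasing hormone (TRH) and corticotropin-releasing hormone (CRH) from the paraventricular nucleus stimulate the thyroid and adrenal axes, respectively. Growth hormone-releasing hormone (GHRH) from the arcuate nucleus stimulates the release of growth hormone and somatostatin (SST) from the periventricular nucleus inhibits it. All 4 genes, Sst and Trh above all, are also expressed in neurons that do not project to the median eminence.

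The sequences that encode the hormones are shown because all 4 messages are precursors, of which only a part becomes hormone. The coding sequences of the known transcripts, from GENCODE M21 on GRCm38, encode 256 residues for Trh, 116 for Sst and 103 for Ghrh. The Trh precursor holds 5 copies of the hormone unit, a glutamine, histidine, proline and glycine between pairs of basic residues. The first copy lies at residues 77 to 80 and the last at residues 203 to 206. In the copies below, capitals mark the codons of the unit and lower case the basic pairs, and the 5 copies have 4 distinct codon sequences.
Trh copy 1: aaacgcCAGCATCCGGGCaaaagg
Trh copy 2: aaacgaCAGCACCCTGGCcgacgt
Trh copy 3: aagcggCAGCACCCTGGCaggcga
Trh copy 4: aagaggCAGCATCCAGGCcggagg
Trh copy 5: aaacgtCAGCATCCTGGCaaaagg

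A single Trh message therefore encodes 5 hormone units, whereas Sst and Crh encode 1 unit each. The short form of somatostatin is encoded by the last 14 codons of Sst, at residues 103 to 116, shown in capitals after the codons of a basic pair.
Sst hormone codons: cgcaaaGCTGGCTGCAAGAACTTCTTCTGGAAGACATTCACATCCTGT

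The CRH unit is encoded by 41 codons, at residues 145 to 185, which precede the last 2 codons of the open reading frame. Capitals mark the 41 codons.
Crh hormone codons: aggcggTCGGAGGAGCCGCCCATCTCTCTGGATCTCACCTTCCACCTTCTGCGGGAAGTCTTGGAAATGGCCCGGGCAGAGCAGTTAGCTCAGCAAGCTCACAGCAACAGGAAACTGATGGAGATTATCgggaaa

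Promoters are shown for the start sites of the known transcripts of Trh, Sst and Ghrh. RefSeq (GRCm38.p6) promoters of 300 bases, 250 before to 50 after the start site, matched Trh (1 entry), Sst (1 entry), Ghrh (2 entries) and Crh (0 entries). All 4 RefSeq start sites are also start sites of the deposited assembly. The 250 bases before each start site are printed 5′ to 3′ on the minus strand, and capitals mark TGACG or CGTCA, the core of the cAMP response element, and TATAA or TTATA, the core of the TATA box.
Trh promoter, chr6:92244651-92244900: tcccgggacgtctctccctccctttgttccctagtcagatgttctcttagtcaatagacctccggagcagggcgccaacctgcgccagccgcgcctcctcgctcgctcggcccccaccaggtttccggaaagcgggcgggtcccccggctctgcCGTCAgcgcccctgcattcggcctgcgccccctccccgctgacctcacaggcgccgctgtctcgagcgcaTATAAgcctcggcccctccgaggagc
Sst promoter, chr16:23890845-23891094: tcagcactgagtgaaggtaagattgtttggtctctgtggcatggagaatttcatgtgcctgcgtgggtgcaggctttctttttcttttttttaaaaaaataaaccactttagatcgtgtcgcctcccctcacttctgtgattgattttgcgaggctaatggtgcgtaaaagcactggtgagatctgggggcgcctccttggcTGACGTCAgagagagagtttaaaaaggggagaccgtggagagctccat
Ghrh downstream promoter, chr2:157337427-157337676: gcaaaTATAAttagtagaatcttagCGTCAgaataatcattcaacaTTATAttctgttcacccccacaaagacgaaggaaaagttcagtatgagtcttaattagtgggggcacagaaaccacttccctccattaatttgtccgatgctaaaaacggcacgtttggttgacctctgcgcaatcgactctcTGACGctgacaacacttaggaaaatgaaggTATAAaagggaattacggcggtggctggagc
Ghrh upstream promoter, chr2:157346656-157346905: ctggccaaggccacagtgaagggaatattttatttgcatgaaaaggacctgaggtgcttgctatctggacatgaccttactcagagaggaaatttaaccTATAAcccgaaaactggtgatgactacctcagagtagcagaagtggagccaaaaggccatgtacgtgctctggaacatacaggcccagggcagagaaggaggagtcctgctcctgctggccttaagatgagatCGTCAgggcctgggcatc

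The whole palindrome TGACGTCA was found in the Sst promoter only, 48 bases before the start site, where its TGACG and CGTCA overlap. It was present, on either strand, in 1.79% of the 32851 promoters of this length. TGACG or CGTCA was also found 96 bases before the Trh start, 61 bases and also farther before the downstream Ghrh start, and 18 bases before the upstream Ghrh start, and 20.8% of all promoters held it. TATAA or TTATA lay 26 bases before the Trh start and 31 bases before the downstream Ghrh start, with further matches farther upstream in both Ghrh promoters, and in 24.9% of all promoters. The palindrome TAATTA, a core bound by many homeodomain factors, was present in the downstream Ghrh promoter at 243 and 153 bases before the start, where the first overlaps a TATAA, and in 5.29% of all promoters. These are matches of letters, and binding was not measured.

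The members were detected in all 282 mice but at very different levels. Sst (chr16:23889581-23891262, minus strand, mm10) ranged from 104.7 to 730 FPKM with a median of 160 and a mean of 167 ± 47.7 (SD, n = 282). Trh (chr6:92242061-92244650, minus strand) ranged from 23.9 to 94.7 FPKM with a median of 42.5 and a mean of 43.9 ± 9.87. Ghrh (chr2:157329497-157346655, minus strand) ranged from 2.65 to 45.3 FPKM with a median of 8.22 and a mean of 8.74 ± 3.72. Crh (chr3:19693401-19695396, minus strand) was the lowest member and ranged from 0.790 to 11.7 FPKM with a median of 2.45 and a mean of 2.63 ± 1.05. Among the means of all gene rows, Sst lay at percentile 98.1, Trh at 88.3, Ghrh at 47.9 and Crh at 21.1. In whole tissue, fewer cells of a type and less RNA per cell cannot be told apart, which holds for every level and difference reported here.

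Because FPKM is scaled by transcript length, the levels of different genes can be ordered. Sst exceeded Trh in 282 of 282 mice, with a median ratio of 3.78 (2.53 to 9.32). Trh exceeded Ghrh in 282 of 282 mice, with a median ratio of 5.30 (1.73 to 13.5). Ghrh exceeded Crh in 281 of 282 mice, with a median ratio of 3.34 (0.998 to 13.2). Over the 99 strain means of log2(FPKM + 1), Sst lay above Trh by 1.91 ± 0.19 (SD), Trh above Ghrh by 2.25 ± 0.31 and Ghrh above Crh by 1.40 ± 0.35. Each order held in 99 of 99 strains and gave p = 1e-05 in a 2-sided sign-flip permutation test, the smallest p that 100000 resamples can give, so no neighbours in the order were indistinguishable.

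The library of mouse OB-547 of BXD-12/TyJ stood apart. Its gene FPKM summed to 792801, against a median of 337467 and a range of 322047 to 463433 in the other mice, while its median gene lay at 1.08 times the median of the other mice. It held 730 FPKM of Sst, 45.3 of Ghrh, 11.7 of Crh and 78.2 of Trh, or 4.57, 5.53, 4.79 and 1.84 times the median of the other mice. Without it, the highest values of Sst, Ghrh and Crh were 375, 21.6 and 6.52 FPKM, and the SDs were 33.8, 3.01 and 0.902. BXD-12/TyJ held the highest strain mean of Crh, Sst and Ghrh through this mouse, so its means are also given without it.

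Of 10 marker genes of hypothalamic neurons, 9 were found in the table, led by Pmch (496 FPKM), the precursor of melanin-concentrating hormone, and Oxt (323.4 FPKM), the oxytocin precursor, whose gene row also holds Mrps26 and Ptpra. Sim1 was not found. Markers of neighbouring tissues varied over the mice. The summed FPKM of 5 thalamus markers ranged from 17.4 to 381 with a median of 216, that of 2 cortex and hippocampus markers from 2.31 to 109.4, that of 5 choroid plexus markers from 7.25 to 2101 and that of 6 anterior pituitary markers from 0.589 to 16462.

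Each member differed among strains. The share of the variance of log2(FPKM + 1) that lay between strains, the intraclass correlation, was 0.322 for Sst (adjusted p = 7.16e-07, moderated F test of limma), 0.285 for Trh (adjusted p = 9.76e-06), 0.280 for Ghrh (adjusted p = 1.25e-05) and 0.245 for Crh (adjusted p = 0.000115). Among all 14079 gene rows 75.4% passed this test, and their median strain share was 0.222 (quartiles 0.114 and 0.366), so the members lay near the middle of all genes. The SD between strains was smaller than that within strains for every member, at 0.16 against 0.26 (log2) for Trh, 0.18 against 0.32 for Crh, 0.17 against 0.24 for Sst and 0.25 against 0.40 for Ghrh. Without mouse OB-547 the strain share of Sst was 0.409. In 60 of the 97 strains with at least 2 mice, the mouse numbers of the strain lie within 10 of each other, and mice handled together were not identified in the labels, so the strain and the handling cannot be told apart there.

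**Figure D1:**
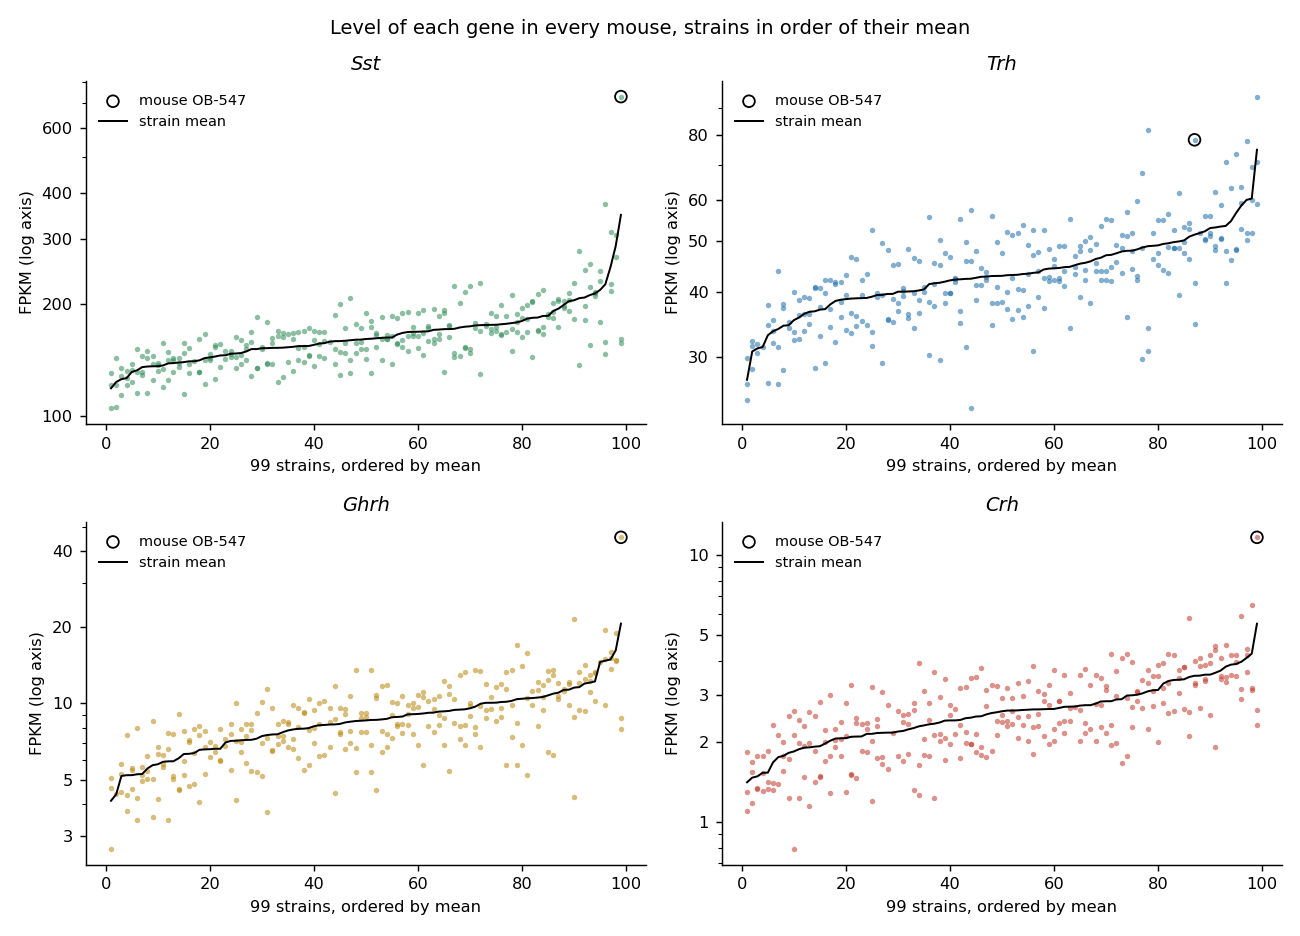
FPKM of Trh, Crh, Sst and Ghrh (log axis) in 281 mice, with the 99 strains ordered by their mean in each panel and mouse OB-547 circled. Strain means rise gradually from 27.2 to 74.9 FPKM for Trh, 1.41 to 5.53 for Crh, 119 to 349 for Sst and 4.12 to 20.7 for Ghrh, where the highest means of Crh, Sst and Ghrh are those of BXD-12/TyJ with the circled mouse, and mice of neighbouring strains overlap.

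Strain means of Trh ran from 27.2 to 74.9 FPKM. The 3 CE/J mice held 24.9, 26.7 and 29.9 FPKM of Trh, and the 3 BXD-19/TyJ mice held 58.9, 71.1 and 94.7. These strains were picked as the ends of the order by the same values, so their lack of overlap follows largely from that choice. The next strains from the top, CXB-12/HiAJ (51.9, 59.9 and 69.3 FPKM) and BXHB2 (50.4, 51.8 and 77.9 FPKM), overlapped with BXD-19/TyJ. AXB-13/PgnJ (mean 30.8 FPKM) and BXA-12/PgnJ (mean 31.2 FPKM, 2 mice) were next to CE/J at the low end.

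Sst, with strain means of 119 to 349 FPKM, was highest in BXD-12/TyJ (157, 162 and 730 FPKM), but only through mouse OB-547, without which the mean was 159 and the rank 54 of 99. SJL/J (268.2 and 307.7 FPKM, 2 mice) and BXD-19/TyJ (217, 227 and 314 FPKM) were the next highest. The lowest means were those of BXD85 (104.7, 121 and 131 FPKM), A/J (105.7, 121 and 143 FPKM) and AXB-13/PgnJ (mean 126 FPKM). The mice of SJL/J and those of BXD85 and A/J did not overlap in Sst. Strains chosen at the ends of the order are apart largely through that choice, and the gap was not tested.

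Ghrh strain means ran from 4.12 to 20.7 FPKM, and its SD between strains of 0.25 on the log2 scale was the largest of the 4 members. Its highest mean was again that of BXD-12/TyJ (7.93, 8.74 and 45.3 FPKM), which fell to rank 54 with a mean of 8.33 FPKM without mouse OB-547. BXHB2 (14.7, 14.9 and 19.0 FPKM) and BXD55 (13.6, 15.1 and 16.0 FPKM) followed, and all 3 mice of each were high. At the low end, AXB-19/PgnJ held 2.65, 4.63 and 5.08 FPKM of Ghrh. AXB-12/PgnJ held 4.37 in its only mouse and AXB-20/PgnJ had a mean of 5.17. These 3 lowest strains for Ghrh were all AXB strains, of which AXB-19/PgnJ and AXB-20/PgnJ may be related lines. In the order given, the summed thalamus markers of the 3 strains were 246.5, 295.6 and 279.6 FPKM, above the median of 214 over strains. The part of these markers in their Ghrh values was not tested.

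Crh strain means ran from 1.41 FPKM in A/J (1.09, 1.30 and 1.83) to 5.53 in BXD-12/TyJ, which had a mean of 2.47 and rank 55 without mouse OB-547. BXD51 (3.12, 3.17 and 6.52 FPKM) and BXD-19/TyJ (3.65, 4.23 and 4.46 FPKM) were the next highest, and BXD61 (mean 1.46 FPKM) and AXB-19/PgnJ (mean 1.48 FPKM) the next lowest. The mice of A/J and those of BXD51 and BXD-19/TyJ did not overlap in Crh, which again follows largely from choosing the ends.

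Several strains stood at the same end for more than 1 member. Counted from the highest mean, BXD-19/TyJ ranked 1 for Trh, 3 for Crh, 3 for Sst and 28 for Ghrh, and BXHB2 ranked 3, 14, 5 and 2. A/J ranked 88, 99, 98 and 92 for the 4 genes, and AXB-19/PgnJ ranked 81, 97, 94 and 99. In contrast, SJL/J ranked 2 for Sst but 72 for Crh, and CE/J ranked 99 for Trh but 41 for Ghrh. The 3 strains with the highest Trh were also the 3 with the lowest summed thalamus markers, at 53.3 FPKM in BXHB2, 68.6 in BXD-19/TyJ and 90.8 in CXB-12/HiAJ against a median of 214 over strains, and the part of these markers in the Trh values of these strains was not tested.

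Ghrh differed between the 5 strain sets, with the strains as units. The AXB/BXA strains had the lowest Ghrh, at 6.89 ± 1.90 FPKM (SD of strain means, n = 18), and the BXH strains the highest, at 11.6 ± 2.39 (n = 6). The BXD strains lay at 8.70 ± 2.70 (n = 43; 8.42 ± 1.94 without mouse OB-547), the CXB strains at 9.19 ± 2.88 (n = 7) and the classical inbred strains at 9.40 ± 1.90 (n = 25). The set means of log2(FPKM + 1) spanned 0.70 (adjusted p = 0.000381, moderated F test of limma), a test that 26.2% of all gene rows passed, and single strains of different sets overlapped. With AXB-18/PgnJ, AXB-19/PgnJ and AXB-20/PgnJ counted as 1 strain, an alternative added after the data had been seen, the span was 0.66 (adjusted p = 0.00186, limma). Ghrh also passed with the thalamus and the cortex and hippocampus sums as covariates, likewise added later (adjusted p = 0.000288, limma). So did 23.8% of all gene rows.

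The other members did not pass this test. Trh set means ranged from 39.5 ± 5.78 FPKM in AXB/BXA to 48.3 ± 7.84 in CXB strains (adjusted p = 0.0532 by limma). Crh ranged from 2.31 ± 0.516 FPKM in classical inbred to 2.96 ± 0.345 in BXH strains (adjusted p = 0.0518), and Sst from 156 ± 21.7 FPKM in AXB/BXA to 179 ± 23.5 in BXH strains (adjusted p = 0.392). Trh and Crh lay close to the threshold, and the AXB/BXA set held the lowest mean for Trh, Sst and Ghrh.

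**Figure D2:**
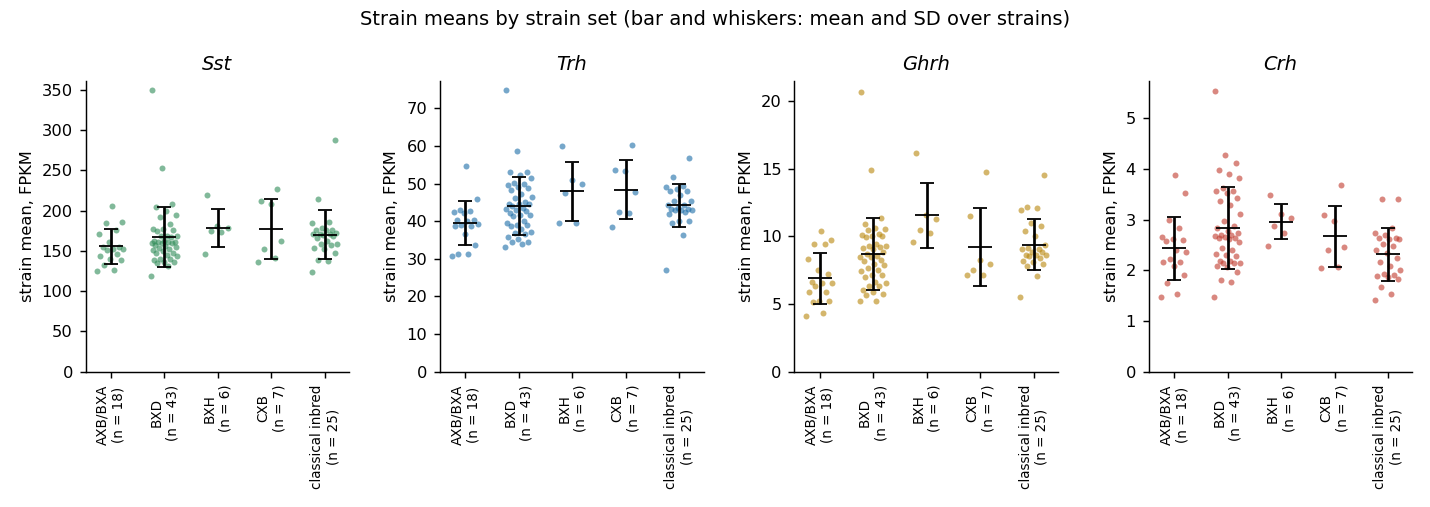
Strain means of Trh, Crh, Sst and Ghrh (FPKM) in the 5 strain sets of the HMDP, with 1 point per strain and the mean ± SD over strains. The AXB/BXA strains have the lowest Ghrh (6.89 ± 1.90 FPKM) and the BXH strains the highest (11.6 ± 2.39 FPKM), whereas the sets of Sst overlap widely.

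The parents of the recombinant inbred sets were compared with C57BL/6J. BALB/cJ and C57BL/6J were the nearest substrains measured for the CXB set, and all 4 contrasts share the same 3 C57BL/6J mice. Sst was lower in A/J, where the mice held 105.7, 121 and 143 FPKM, than in C57BL/6J, where they held 166, 173 and 219. The difference of -0.59 on the log2 scale (SE 0.20, 95% interval -0.98 to -0.20) passed the test (adjusted p = 0.0436, limma). So did 8.01% of all gene rows, and 4.94% in this direction. The call was lost when the mice numbered 1 or 3 in each strain were left out (-0.46 and -0.56, adjusted p = 0.443 and 0.205). The summed thalamus markers were 240 FPKM in A/J and 188 in C57BL/6J, and with the tissue sums as covariates, an alternative added after the data had been seen, the difference was -0.54 and no longer passed (adjusted p = 0.0595, limma).

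None of the other 15 contrasts of a member passed, in tests that called 6.88% of gene rows for DBA/2J, 6.79% for BALB/cJ and 7.59% for C3H/HeJ. The largest remaining differences were Sst in C3H/HeJ (-0.44, adjusted p = 0.185), Crh in C3H/HeJ (0.47, adjusted p = 0.317), Ghrh in A/J (-0.59, adjusted p = 0.308) and Ghrh in BALB/cJ (0.42, adjusted p = 0.553). All 4 members had a lower mean in A/J than in C57BL/6J, at 36.3 against 47.0 FPKM for Trh, 1.41 against 2.25 for Crh, 123 against 186 for Sst and 5.53 against 8.87 for Ghrh. With 3 mice per parent the 95% intervals were wide, for example -1.22 to 0.05 for Ghrh in A/J.

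Many recombinant inbred strains lay outside the range of their parents' means. Of the 43 BXD strains, 31 had a lower Sst mean than both DBA/2J (171.5 FPKM) and C57BL/6J (186 FPKM), and 7 a higher one (32 and 6 without mouse OB-547). For Crh, 27 BXD strains lay above both parents (2.53 and 2.25 FPKM) and 11 below (26 and 11 without this mouse). All 6 BXH strains exceeded both C3H/HeJ (8.64 FPKM) and C57BL/6J (8.87 FPKM) in Ghrh, whereas 5 of 7 CXB strains lay below both BALB/cJ (12.2 FPKM) and C57BL/6J. In Sst, 16 of 18 AXB/BXA strains lay between A/J (123 FPKM) and C57BL/6J. A/J ranked 98 of 99 strains for Sst and the median of the strain means was 161 FPKM, so this range can hold many strains of any set. Against C57BL/6J, the log2 difference of DBA/2J was -0.13 (SE 0.20) for Sst and 0.13 (SE 0.26) for Crh. That of C3H/HeJ was -0.06 (SE 0.32) for Ghrh. A range between parents this close can leave most strain means outside it, and the share over all genes was not computed. The counts were not tested, and a strain mean rests on at most 3 mice.

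**Figure D3:**
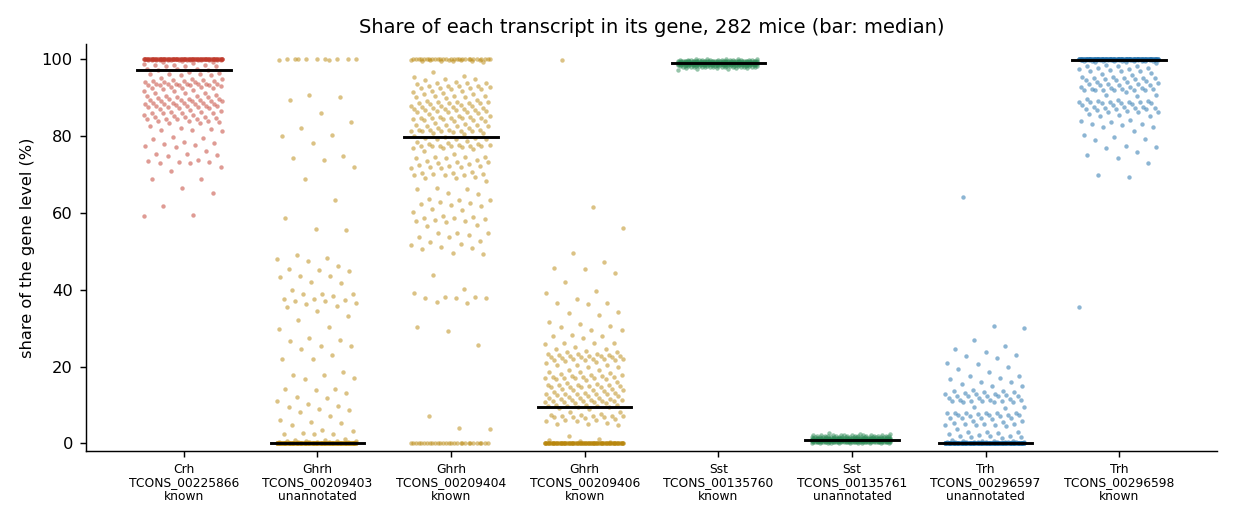
Share of the gene's FPKM (percent, vertical axis) carried by each of the 8 transcripts of Trh, Crh, Sst and Ghrh in 282 mice, with 1 point per mouse and the median as a bar. The known transcripts of Trh, Crh and Sst carry nearly all of the signal (means of 95.6%, 93.0% and 99.0%), whereas the 3 transcripts of Ghrh vary from mouse to mouse.

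Most of the signal of Trh, Crh and Sst came from 1 known transcript each. The known Sst transcript (TCONS_00135760, 2 exons) reached 165 ± 47.4 FPKM (n = 282), 99.0% of the gene on average, and differed among strains (strain share 0.324, adjusted p = 2.75e-06, limma), in a test that 46.8% of all 51024 transcripts passed. The known Trh transcript (TCONS_00296598, 3 exons) reached 41.9 ± 9.84 FPKM, 95.6% of the gene, and also differed among strains (strain share 0.257, adjusted p = 0.000198). The only Crh transcript (TCONS_00225866, 2 exons) reached 2.45 ± 1.03 FPKM and passed as well (adjusted p = 0.000411). Gene and transcript rows need not add up, and the row of a gene exceeded the sum of its transcripts by up to 1.37 FPKM for Crh, 3.66 for Ghrh and 6.65 for Trh.

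The unannotated isoforms of Trh and Sst were minor. The Sst isoform (TCONS_00135761) starts upstream at position 23891262, held 1.01% of the gene on average and at most 2.75% in any mouse, and did not pass the strain test (adjusted p = 0.997). The Trh isoform (TCONS_00296597) begins with a first exon of 20 bases inside the first intron and held a median of 0.0289% of the gene. Its share was highest, 64.2% or 50.3 FPKM, in mouse OB-547, and its strain test gave an adjusted p of 0.445. In that mouse the known Trh transcript alone held 27.9 FPKM, below the median of 40.4 over all mice.

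Ghrh was divided between 3 transcripts that differed greatly from mouse to mouse. The known transcript from the downstream start (TCONS_00209404) held 6.25 ± 3.63 FPKM, or 70.0% of the gene on average, and an unannotated isoform of the same start (TCONS_00209403) held 1.20 ± 2.18 FPKM. The pair differs only in the second exon, which is 100 bases long in the known transcript and 89 in the isoform. The isoform made up less than 5% of the pair in 189 mice, more than 95% in 29 mice and between 5% and 95% in 64 mice. Neither member of the pair differed among strains beyond the threshold (adjusted p = 0.0883 and 0.824), although the Ghrh gene row did. The reads were 50 bases long, and how well they separate exons that differ in so few bases was not tested.

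The other known Ghrh transcript (TCONS_00209406) starts upstream at position 157346655. The known transcripts of Ghrh have an identical coding sequence and differ in their first exon, so this start changes the promoter but not the encoded precursor. Over all mice the downstream start at 157337426 carried 86.8% ± 13.1 of Ghrh and the upstream start 13.1% ± 13.1, with 77 mice at 0 and 75 mice above 20%. The upstream start dominated in a mouse of BXD-14/TyJ, with 99.8% of 8.24 FPKM, and it held 17.0 FPKM or 37.6% of the gene in mouse OB-547. The upstream transcript did not pass the strain test (strain share 0.0228, adjusted p = 0.413 by limma).

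All 6 pairs of members rose and fell together over the 99 strain means. Trh and Sst were the most alike, with r = 0.634 (permutation p = 1e-05) and rho = 0.60 (p = 1e-05), and r = 0.597 after removal of the 2 strains most distant from the Trh median. Sst and Ghrh gave r = 0.557 (p = 1e-05), rho = 0.559 (p = 1e-05) and r = 0.538 without the farthest 2 strains. A p of 1e-05 is the smallest that 100000 permutations can give.

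The pair of Trh and Ghrh, of the thyroid and the growth axis, gave r = 0.485 (permutation p = 1e-05), rho = 0.483 (p = 1e-05) and r = 0.533 without the farthest 2 strains. Trh and Crh, both made in the paraventricular nucleus, gave r = 0.474 (permutation p = 1e-05), rho = 0.378 (p = 0.00015) and r = 0.407. Crh and Sst gave r = 0.459 (permutation p = 1e-05), rho = 0.412 (p = 1e-05) and r = 0.391. Crh and Ghrh were the least alike, with r = 0.355 (permutation p = 0.00034), rho = 0.327 (p = 0.00092) and r = 0.296.

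The members were also compared with all genes. In a limma regression of every other gene on each member, adjusted over all rows, the adjusted p was 8.96e-10 for Trh and Sst, 3.17e-07 for Sst and Ghrh, 1.21e-05 for Trh and Ghrh, 2.15e-05 for Trh and Crh, 6.84e-05 for Crh and Sst and 0.0031 for Crh and Ghrh. Between a member and all genes the median r was 0.0169 for Trh, 0.0260 for Crh, 0.0247 for Sst and 0.0353 for Ghrh, and the other members lay between the percentiles 95.9 and 99.9 of these values. Without mouse OB-547 the 6 values of r ranged from 0.318 to 0.643.

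**Figure D4:**
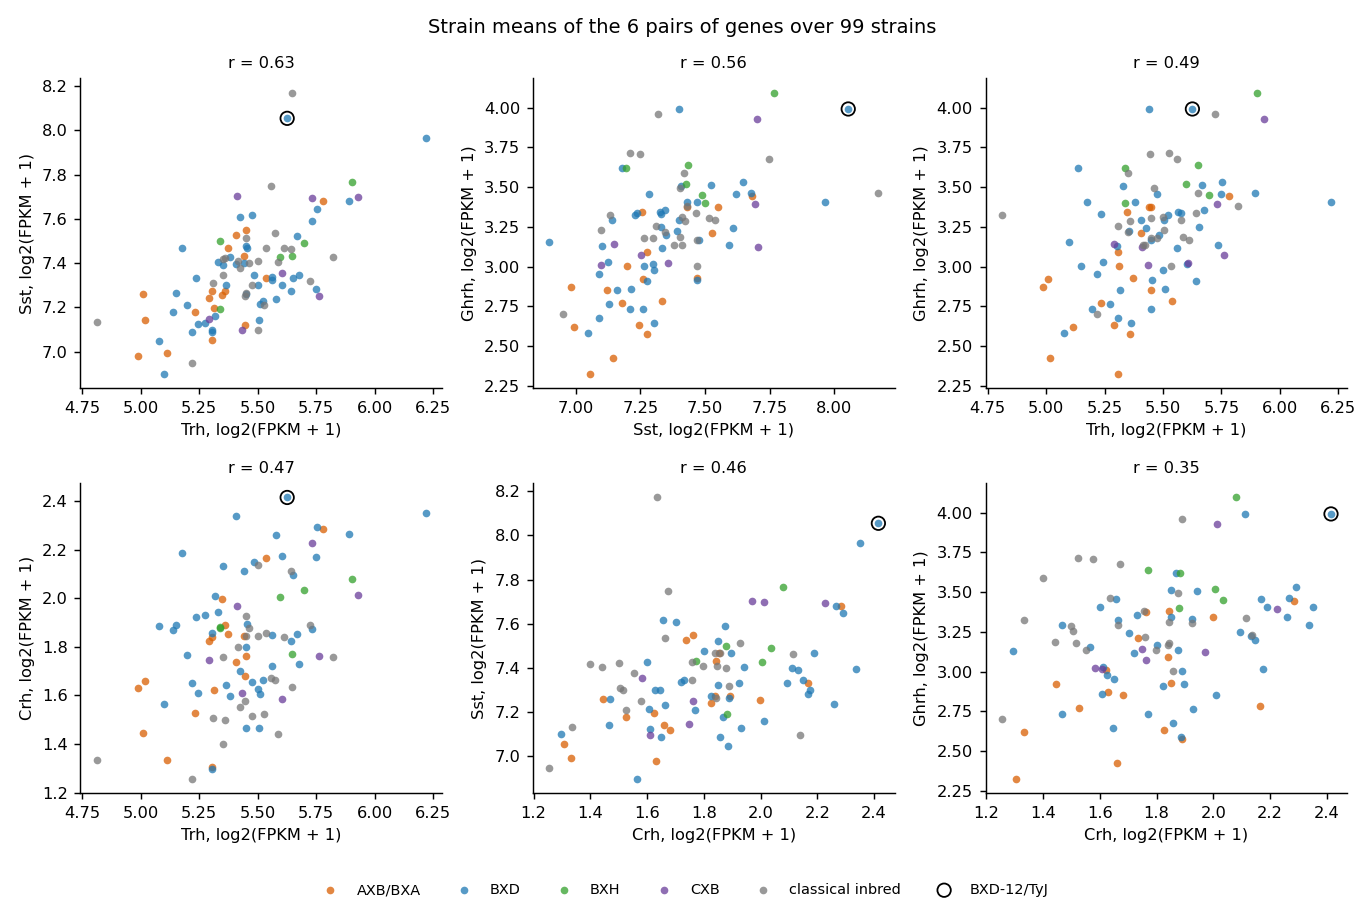
Strain means of each pair of members, as log2(FPKM + 1) on both axes, for 99 strains coloured by strain set, with BXD-12/TyJ circled. All 6 pairs slope upwards, with r from 0.355 for Crh and Ghrh to 0.634 for Trh and Sst.

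The pairs were positive in each strain set that was large enough to be tested. Within the 18 AXB/BXA strains r ranged from 0.521 to 0.731 (0.407 to 0.764 with AXB-18/PgnJ, AXB-19/PgnJ and AXB-20/PgnJ as 1 strain, where Crh and Ghrh gave a permutation p of 0.119), within the 43 BXD strains from 0.359 to 0.658 and within the 25 classical inbred strains from 0.123 to 0.532. In the classical inbred strains, only Trh and Crh (r = 0.532, permutation p = 0.00498) and Trh and Sst (r = 0.467, permutation p = 0.0347) had an unadjusted p under 0.05. The difference between sets was not tested.

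The members also moved together between mice of the same strain. Over the deviations of 281 mice from their strain means, r was 0.579 for Sst and Ghrh, 0.560 for Trh and Sst, 0.523 for Trh and Ghrh and 0.490 for Trh and Crh, each with a permutation p of 1e-05 from permuting within strains. Crh deviated less closely with Sst (r = 0.364, permutation p = 0.00066) and Ghrh (r = 0.234, permutation p = 0.0215). Without mouse OB-547 the last pair gave r = 0.125 (permutation p = 0.107) and the other 5 pairs 0.219 to 0.525.

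The sums of the thalamus and of the cortex and hippocampus markers moved with all 4 members, whereas the other tissue sums moved with fewer or none. Over strain means, the summed thalamus markers fell as the members rose, with r = -0.607 for Trh, -0.434 for Crh, -0.446 for Sst and -0.416 for Ghrh, and all 5 thalamus genes passed the limma test against each member. The cortex and hippocampus markers, of which Slc17a7 (27.9 FPKM), a vesicular glutamate transporter, makes up nearly all, gave r = -0.597, -0.373, -0.555 and -0.485. Tbr1 (1.78 FPKM), the other gene of that list, rose with Crh (r = 0.450) and gave 0.217, 0.109 and 0.0025 with Trh, Sst and Ghrh, so the sum follows Slc17a7. The summed striatum markers rose with Crh (r = 0.361), Sst (0.352) and Ghrh (0.331), the summed choroid plexus markers fell with Ghrh (r = -0.227, adjusted p = 0.0645 in the permutation test without mouse OB-547), and the summed anterior pituitary markers passed with none of the 4 members. The relations named passed a permutation test, except those of the pituitary. It was adjusted over 24 relations, which include those with the summed gene FPKM of the library. By that test the library sum rose with Crh (r = 0.313, adjusted p = 0.00101), Sst (0.368, 0.00294) and Ghrh (0.296, 0.00447). With Trh it did not pass (r = 0.134, adjusted p = 0.203). Without mouse OB-547 it passed with none of Crh, Sst and Ghrh (adjusted p = 0.0574, 0.0769 and 0.0774 by permutation). Of the 6 pituitary genes only Tshb fell with a member in the limma test, with Sst (r = -0.273, adjusted p = 0.0278). Of the 4 striatum genes found, 1 rose with Trh, 2 with Crh, 2 with Sst and 1 with Ghrh in the limma test. Beside them 10.1%, 12.3%, 14.0% and 8.22% of all rows rose. The part of the neighbouring tissue in the values of the members was not tested beyond the fits with tissue sums as covariates.

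With the thalamus and the cortex and hippocampus sums as covariates, an alternative added after the data had been seen, the partial r was 0.467 for Trh and Sst (adjusted p = 0.00055, limma over all genes), 0.395 for Sst and Ghrh (0.0014), 0.333 for Crh and Sst (0.0123) and 0.290 for Trh and Crh (0.0445). Trh and Ghrh, with partial r = 0.273 (adjusted p = 0.0621), and Crh and Ghrh, with 0.206 (adjusted p = 0.143), no longer passed the test over all genes, while by permutation these 2 pairs gave p = 0.00636 and 0.0417. All 6 values remained positive and each was smaller than without the covariates.

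A large part of the transcriptome was associated with each member over strain means. Of 14078 other gene rows, 21.4% passed with Trh, 24.0% with Crh, 24.6% with Sst and 13.3% with Ghrh. Positive associations made up 10.1% of all rows for Trh, 12.3% for Crh, 14.0% for Sst and 8.22% for Ghrh, and negative ones 11.2%, 11.7%, 10.6% and 5.11%. Quantile normalization changed the positive part of the calls for Ghrh from 61.7% to 46.4%, and that for Crh from 51.4% to 42.6%. With the tissue sums as covariates 8.73% of rows passed with Trh (5.19% positive, 3.54% negative), 15.5% with Crh (9.11% and 6.41%), 17.8% with Sst (11.4% and 6.43%) and 2.89% with Ghrh (2.56% and 0.327%). Without mouse OB-547 the rows that passed numbered 3071 for Trh, 2364 for Crh, 2531 for Sst and 1509 for Ghrh, against 3006, 3378, 3464 and 1876 with it.

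Among other neuroendocrine signals, a larger share rose with each member than among all genes. Of all rows 10.1%, 12.3%, 14.0% and 8.22% rose with Trh, Crh, Sst and Ghrh. Of 16 genes found of a list of 20, 11 rose with Trh, 7 with Crh, 9 with Sst and 10 with Ghrh, and 0 fell with any of them. Their median r was 0.457, 0.210, 0.325 and 0.314, respectively. Gal, the precursor of galanin, gave r = 0.653 with Trh, and Pnoc, the precursor of nociceptin, gave r = 0.709 with Sst and 0.596 with Crh. Nts, which encodes neurotensin, was associated with Crh (r = 0.650) and Trh (r = 0.597) but gave r = 0.230 with Ghrh (adjusted p = 0.102, limma). Gnrh1, which encodes the releasing hormone of the reproductive axis, passed with Crh (r = 0.521) and Trh (r = 0.302), and gave 0.153 with Sst and 0.101 with Ghrh. Given the tissue sums, 7 genes of the list rose with Trh, 6 with Crh, 7 with Sst and 2 with Ghrh, and 2 fell with Crh. Among all rows 5.19%, 9.11%, 11.4% and 2.56% then rose, and 6.41% fell with Crh. Without mouse OB-547 the list gave 12 genes higher with Trh, 7 with Crh, 11 with Sst and 10 with Ghrh.

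Marker genes of other hypothalamic neurons also rose with the members. Of the 9 found, 7 rose with Trh, 3 with Crh, 8 with Sst and 6 with Ghrh, and 0 fell. Among all rows 10.1%, 12.3%, 14.0% and 8.22% rose with Trh, Crh, Sst and Ghrh. Oxt, which marks magnocellular neurons of the paraventricular and supraoptic nuclei, gave r = 0.552 with Trh, 0.546 with Sst, 0.393 with Crh and 0.269 with Ghrh, all past the test. Pomc, the precursor of melanocortins, passed with none (r = -0.127 to 0.060). The summed anterior pituitary markers ranged from 0.589 to 16462 FPKM over the mice, and the part of pituitary tissue in the Pomc values was not tested. Given the tissue sums, 3, 2, 5 and 1 of these genes rose with Trh, Crh, Sst and Ghrh. The shares of all rows that rose were then 5.19%, 9.11%, 11.4% and 2.56%.

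Transcription factors of these neurons formed the next list, with 13 genes found of 16. Of these, 8 rose with Trh, 7 with Crh, 8 with Sst and 7 with Ghrh, beside 10.1%, 12.3%, 14.0% and 8.22% of all rows. Only Creb1 fell, with Crh (r = -0.310, adjusted p = 0.0504 without mouse OB-547, limma) and Sst (r = -0.388). Otp, a homeodomain factor needed for neuroendocrine neurons of the paraventricular and arcuate nuclei, gave r = 0.611 with Trh, 0.622 with Sst and 0.573 with Ghrh but only 0.281 with Crh, all past the test. Gsx1, a homeodomain factor needed for Ghrh neurons, gave r = 0.446 with Ghrh and 0.469 with Sst at a mean level of 0.860 FPKM. Dlx1, whose row also holds Metap1d, and Dlx2, factors of GABA neurons, passed with Crh (r = 0.409 and 0.567). Given the tissue sums, 4 factors rose with Trh, 2 with Crh, 5 with Sst and 1, Otp, with Ghrh. The shares of all rows that rose were then 5.19%, 9.11%, 11.4% and 2.56%.

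Of 12 receptors and the binding protein of these hormones, 7 were found. Trhr, the TRH receptor (3.00 FPKM), rose with Trh (r = 0.294, adjusted p = 0.0196, limma), and Crhr1 (3.33 FPKM), the main CRH receptor, did not pass with Crh (r = -0.039, adjusted p = 0.816). Crhbp (4.98 FPKM), which encodes the protein that binds CRH, gave r = 0.204 with Crh (adjusted p = 0.121) but r = 0.539 with Sst and 0.493 with Trh, both past the test. Of the SST receptors, Sstr1 (6.48 FPKM) rose with Sst (r = 0.387, adjusted p = 0.000998), Sstr4 (2.68 FPKM) fell with it (r = -0.264, adjusted p = 0.0353, but 0.0594 without mouse OB-547) and Sstr2 and Sstr3 did not pass. Adjusted for the tissue sums, Crhbp kept its call with Trh and Sst, and Trhr, Sstr1 and Sstr4 did not keep theirs.

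Among 14 genes of prohormone processing and peptide breakdown, 5 rose and 1 fell with Trh, 2 and 1 with Crh, 4 and 1 with Sst and 4 and 0 with Ghrh, beside 10.1%, 12.3%, 14.0% and 8.22% of all rows that rose. Given the tissue sums, the list gave 1 higher and 0 lower with Trh, 1 and 2 with Crh, 4 and 2 with Sst and 2 and 0 with Ghrh. Among all rows 5.19%, 9.11%, 11.4% and 2.56% then rose, and 3.54%, 6.41%, 6.43% and 0.327% fell. Qpct, which forms the pyroglutamate at the start of TRH, gave r = 0.540 with Trh. Pam, which amidates TRH and CRH, gave r = 0.511 with Trh, 0.352 with Sst and 0.417 with Ghrh. With Crh it gave 0.213 (adjusted p = 0.109, limma). Pcsk2, a prohormone convertase, fell with Trh (r = -0.439), Crh (r = -0.479) and Sst (r = -0.450), while Pcsk1n, which encodes an inhibitor of the convertase PC1/3, rose with Sst (r = 0.659). With the tissue sums as covariates Qpct kept its call with Trh, Pcsk2 kept its calls with Crh and Sst but not with Trh, and Pam lost its calls with Trh, Sst and Ghrh. Pcsk1 and Cpe, a convertase and a carboxypeptidase that act on all these precursors, passed with none. Trhde, whose product degrades TRH, did not pass with Trh (r = 0.187, adjusted p = 0.179).

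The hormones whose release the members control act back on the hypothalamus, and 2 lists covered that feedback. Of 8 genes of thyroid hormone handling and response, 0 rose and 3 fell with Trh, namely Dio2 (r = -0.391), which activates thyroid hormone, and the thyroid hormone responsive Klf9 (r = -0.352) and Hr (r = -0.309), while 11.2% of all rows fell with Trh. None of the 3 passed with the tissue sums as covariates. The list gave 2 higher and 1 lower with Crh, 0 and 2 with Sst and 1 and 3 with Ghrh. Among all rows 12.3%, 14.0% and 8.22% rose with Crh, Sst and Ghrh, and 11.7%, 10.6% and 5.11% fell. Without mouse OB-547 the list gave 1 higher with Crh and 1 lower with Sst, and with quantile normalization 0 higher with Ghrh. Thrb, the receptor known for the feedback on Trh, did not pass with Trh (r = -0.132).

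Of 10 genes of glucocorticoid reception and response, 0 rose and 1 fell with Crh, beside 11.7% of all rows that fell with it. The list gave 0 higher with the other members, and 2, 1 and 2 lower with Trh, Sst and Ghrh. With these members 11.2%, 10.6% and 5.11% of all rows fell. The gene that fell with Crh was Nr3c1, the glucocorticoid receptor (17.7 FPKM), with r = -0.428 (adjusted p = 0.000235, limma), and it also fell with Trh (r = -0.473), Sst (r = -0.444) and Ghrh (r = -0.361). Adjusted for the tissue sums, Nr3c1 passed with Trh, Crh and Sst (adjusted p = 0.0086, 0.0161 and 0.000726) but not with Ghrh (0.0728). Fkbp5 (8.91 FPKM), a common readout of glucocorticoid action, did not pass with Crh (r = 0.151), and neither did Sgk1 or Tsc22d3.

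Of 4 transmitter genes, 3 rose with Trh, 2 with Crh, 3 with Sst and 2 with Ghrh, and 1 fell with each. The shares of all rows were 10.1%, 12.3%, 14.0% and 8.22% for a rise and 11.2%, 11.7%, 10.6% and 5.11% for a fall. After quantile normalization 1 transmitter gene rose with Ghrh, and Slc32a1 gave an adjusted p of 0.0541 by limma. Slc32a1, the vesicular GABA transporter, and Gad2, which makes GABA, rose with all 4 members (r = 0.315 to 0.595 and 0.392 to 0.640). Gad1, which also makes GABA, rose with Trh (r = 0.292) and Sst (0.281), and gave 0.194 with Crh (adjusted p = 0.143, limma; 0.00144 without mouse OB-547) and 0.077 with Ghrh. Slc17a6, the glutamate transporter of the hypothalamus and also of the thalamus, fell with all 4 (r = -0.382 to -0.525). In the fit with tissue sums Slc32a1 and Slc17a6 still passed with Crh and Sst, and Gad2 with Trh, Crh and Sst.

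The genes most like each member over 99 strain means were chosen by r alone and are given as a description. The highest r with Trh were those of Ecel1 (0.760), Irs4 (0.729), Ahi1 (0.710), Magel2 (0.699) and Nap1l5 (0.698). For Sst they were Caly (0.741), Ly6h (0.735), Pnoc (0.709), Pld3 (0.706) and Vstm2l (0.690), and for Crh they included Maged1 (0.706), Ly6h (0.653), Nts (0.650) and Penk (0.614). For Ghrh they were Rgs9 (0.613), Prmt2 (0.594), Ahi1 (0.588), Otp (0.573) and AI467606 (0.571). Ahi1 thus appeared for Trh and Ghrh and Ly6h for Crh and Sst, and all of the genes named passed with the tissue sums as covariates. The lowest r were -0.654 with Trh (Slc24a2), -0.590 with Crh, -0.624 with Sst (Syt7 for both) and -0.517 with Ghrh (Homer2).

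Neighbours on the chromosome were sought only among genes with a row in the expression table. Of the 8 nearest such genes, 2 passed with their member over strains, in tests that 13.3% to 24.6% of all rows passed. For Ghrh, Rpn2, which ends 3117 bp away and encodes a subunit of the oligosaccharyltransferase, gave r = 0.455 (adjusted p = 0.000342, limma), whereas Manbal at 20939 bp gave 0.188 (adjusted p = 0.203). For Trh, Prickle2 at 126052 bp gave r = -0.473 (adjusted p = 2.83e-05) and Zfyve20 at 27136 bp gave 0.049 (adjusted p = 0.792). Neither neighbour of Sst (Rtp4 and Bcl6) or of Crh (Pde7a and 4632415L05Rik) passed. The libraries carried no strand, so reads from overlapping or antisense transcripts could not be separated from those of the members.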

How the data were processed

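Hypothalamic RNA of 282 male HMDP mice fed high fat was sequenced by the authors in unstranded, paired-end libraries with reads of 50 bases. STAR 2.3.1 was used for alignment to mm10, Cufflinks 2.2.0 for assembly, which was merged with GENCODE M2, and Cuffnorm 2.2.1 for quantification and scaling. The deposited values are FPKM of features that exceed 0 in 100 mice or more and 1 in 50 mice or more. FPKM hold no read counts per gene, and precision is the spread over mice. The number of columns per mouse left unused was 0.

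Strains were taken from the labels. Mouse OB-627, for which 2 strains are named, entered no strain comparison. Tests used log2(FPKM + 1) and limma 3.58.1 in R 4.3.3 over all gene or transcript rows, with Benjamini-Hochberg adjustment at 0.05, and were tested on simulated data. The tests were a moderated F over strains, one over strain sets on strain means, contrasts of parents, and regressions of each gene on a member. A log2 difference of low genes is understated by the pseudocount of 1. Correlations used 2-sided permutation tests with 100000 resamples in Python 3.11.15 with scipy 1.17.1. Sequences came from RefSeq (GRCm38.p6) and GENCODE M21. Of 122 genes in the lists, 101 were found, and 639 gene rows hold 2 or more gene names.

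The members and lists were chosen with earlier results of these data known. The strains named are the parents and the 3 highest and 3 lowest strains. The genes named are the members, the genes of the lists, the 5 highest and 3 lowest by r and the nearest with a row. One gene that this rule takes is not reported here. Alternatives were a pseudocount of 0.1, a filter at a mean FPKM of 1, quantile normalization, the Kruskal-Wallis test, read numbers from the study's supplement as covariates, leaving out replicates, mouse OB-547, or the 10% of mice highest in a tissue list, other placements of mouse OB-627, single strain sets, FPKM without a log, and deviations of mice. The tissue sums as covariates, deviations without mouse OB-547, and AXB-18/PgnJ, AXB-19/PgnJ and AXB-20/PgnJ as 1 strain were added after seeing the data.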

Additional observations from a re-analysis of the deposited data

Results flagged for a closer look

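Ghrh stood out in 1 strain of each of 2 small recombinant inbred sets. Among the 6 BXH strains, BXHB2 had a mean of 16.2 FPKM, and its distance to the next strain was 0.652 of the range of the set, above the limit of 0.625 for 6 values. Among the 7 CXB strains, CXB-12/HiAJ had a mean of 14.8 FPKM, with a distance of 0.583 of the range against a limit of 0.568 for 7 values. The 4 members in the 2 sets made 8 groups, and such a distance arises by chance in about 5% of groups. Both strains are also among the 3 with the lowest summed thalamus markers, at 53.3 and 90.8 FPKM against a median of 214 over strains, and the part of these markers in the Ghrh values was not tested.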

How the results depend on the processing

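Under the alternatives, 23 values of the main comparisons changed their side of the threshold or, for counts, moved by more than 1.5 times, and 0 changed direction. Strain shares lost significance within the classical inbred strains for Trh (0.112), Crh (0.112) and Ghrh (0.104) and within the AXB/BXA strains for Trh (0.274), where fewer strains were tested. Within the classical inbred strains the correlations of Trh with Sst (0.467) and Ghrh (0.304), of Crh with Sst (0.175) and Ghrh (0.123) and of Sst with Ghrh (0.264) did too, as did Crh with Ghrh over deviations of mice without mouse OB-547 (0.125). Quantile normalization called 2 Sst contrasts between parents, adding C3H/HeJ (-0.46, adjusted p = 0.0235, limma). The genes associated with Ghrh were 1124 without the 10% of mice highest in thalamus markers. With the tissue sums as covariates they were 407 for Ghrh, 1229 for Trh and 2185 for Crh, 0 Sst contrasts between parents were called, and the uncalled contrasts of Trh and Ghrh in C3H/HeJ crossed 0 (0.043 and 0.035). With AXB-18/PgnJ, AXB-19/PgnJ and AXB-20/PgnJ as 1 strain, Crh and Ghrh were lost within the AXB/BXA strains (r = 0.407). The cause of these shifts was not tested.

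Leaving out the mice numbered 1, 2 or 3 in all strains gave 0 to 1 Sst contrasts, a Crh difference between strain sets of 0.15 to 0.37 (adjusted p = 0.0328 without the mice numbered 1), and 2192 to 3812 genes associated with Trh, 2192 to 3494 with Crh, 2980 to 5630 with Sst and 1488 to 3803 with Ghrh. Contrasts that had not been called and crossed 0 were those of Trh in BALB/cJ (-0.18 to 0.026) and C3H/HeJ (-0.15 to 0.015), Crh in DBA/2J (-0.21 to 0.40) and BALB/cJ (-0.38 to 0.10), Sst in DBA/2J (-0.29 to 0.17) and Ghrh in DBA/2J (-0.43 to 0.16) and C3H/HeJ (-0.15 to 0.072). Some strains then had 1 mouse, which limma assumes to vary like the others. No paired analysis was possible because the labels carry no replicate numbers and the numbers used here follow the order of the samples. With at most 3 mice per strain, differences between single strains are imprecise, and the reads behind a value are unknown from FPKM.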

Other observations

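Mouse OB-627, whose labels name 2 strains and which entered no comparison between strains, held 52.1 FPKM of Trh, 1.42 of Crh, 186 of Sst and 8.37 of Ghrh, all within the range of the other mice.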
